A study of Arabidopsis thaliana with 36 samples.

Results

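Chloroplast tRNAs carry pseudouridine (Ψ, an isomer of uridine) at sites ahead of the T loop, the loop that holds the almost universal Ψ at canonical position 55. The sites described here were the rows of the tRNA table named for a chloroplast (plastid) tRNA with a listed position of 52 or lower, a rule that used no measured value. It gave 36 of the 349 tRNA sites in the table and 36 of the 67 chloroplast sites. These were in 23 of 29 chloroplast tRNA names and, going by the names, in 17 isotypes (the amino acid a tRNA carries). In 12 tRNAs there was 1 such site, and the other 11 tRNAs held 24. Listed positions ran from 17 to 41, so no site lay in the acceptor stem or the variable region. The level of a site, as its median over tissues, ran from 0 to 1, and 31 of the sites were below the T-loop site of their own tRNA in every tissue measured. That count takes in values of 0 and values that had not passed the authors' filter. Over the 35 sites with all values, the median was lowest in root (0.266) and highest in shoot (0.75), but over the 10 sites that passed in all 9 tissues it was 0.6065 in root, still the lowest, and 0.843 in shoot, below seedling (0.846).

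The values came from BID-seq, in which bisulfite forms an adduct with Ψ that reverse transcriptase skips, so that a Ψ is read as a deletion. The plants were Arabidopsis thaliana of the wild-type accession Col-0, and total RNA came from 9 tissues with no genetic or chemical treatment between them: flower, seedling, silique, cauline leaf, stem, rosetta leaf (spelled as in the labels), seed, shoot and root. Seedlings, shoots and roots grew on plates, rosetta leaves came from soil-grown plants, cauline leaves, flowers, stems and siliques were taken after flowering, and seeds were mature and dried. Each tissue had 2 treated libraries and 2 untreated input libraries, 36 libraries in 18 groups, and the authors pooled the treated replicates into 1 Ψ fraction per site and tissue, on a scale from 0 to 1. A second column gives, for each tissue, a call of whether the site met the authors' filter (passed). Neither read depth nor the spread between replicates can be had from these columns, so no value below carries a replicate error, and a value of exactly 0, which can be a failed estimate, is called listed at 0. The exact tests below compared sets of sites within each tissue and asked if the difference kept its direction over the 9 tissues. They did not test a difference between tissues.

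A tRNA folds into an acceptor stem, a D arm, an anticodon arm and a T arm. The anticodon arm has a stem of 5 base pairs (canonical positions 27 to 31 with 39 to 43) and a loop from 32 to 38, with the anticodon at 34 to 36. Chloroplast translation is of the bacterial kind. In Escherichia coli, TruA modifies positions 38, 39 and 40, RluA modifies 32 and TruB modifies 55. In yeast, Pus1 acts at 27 and 28 among other positions, Pus6 at 31 and Pus3 at 38 and 39. Which enzyme acts at any chloroplast site listed here was not measured.

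Every site was placed in its tRNA by matching the name to the chloroplast tRNA genes of RefSeq (assembly TAIR10.1, which has the TAIR10 chloroplast genome) and requiring a T at each listed position. All 29 names matched 1 distinct sequence. Gly-GCC-4 was an exception to its label: no gene with the named anticodon had T at its positions, and it matched the tRNA-Gly gene with anticodon TCC. Met-CAT-7 matched the initiator gene trnfM, Met-CAT-8 matched the elongator gene trnM, and Met-CAT-9 matched trnI(CAT), annotated as a tRNA-Ile that reads its codon after lysidine is formed in the anticodon. Ala, Asn, Leu-CAA, Met-CAT-9 and Val-GAC (5 tRNAs) have identical genes in both copies of the inverted repeat, whose reads cannot be told apart. Below, a site is named by isotype and listed position, with the anticodon or the number of the file's name where an isotype has several tRNAs.

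The sequences below show where the sites lie, 5′ to 3′, as DNA of the RefSeq genes, with each listed site of the stretch in capitals. The first group holds the D arms.
tRNA-His, chrPT:51-67 minus strand: gccaagtggaTtaaggc
Initiator tRNA-Met (Met-7), chrPT:36752-36768 minus strand: gagcagtTtggtagctc
tRNA-Phe, chrPT:48184-48199 plus strand: gctcagttggTagagc
tRNA-Val(TAC), chrPT:51846-51862 minus strand: gctcagtTaggtagagc

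The second group holds anticodon arms (canonical positions 27 to 43) with a site in the 5′ strand of the stem, since 17 of the 36 sites lie there, or a site at canonical position 26, the base between the D and anticodon arms. Position 26 was listed in tRNA-Ala and tRNA-Ser(TGA), whose stretches start there, and it is the only site of tRNA-Ser(TGA) shown.
tRNA-Ala, chrPT:103690-104508 plus strand with the intron between its exons left out: TccgcTcttgcaaggcgg
tRNA-Ser(TGA), chrPT:35360-35377 minus strand: Tccggtcttgaaaaccgg
tRNA-Arg(TCT), chrPT:9616-9632 plus strand: TaggTcttctaaacctt
tRNA-Glu, chrPT:30495-30511 minus strand: TctcTctttcaaggagg
tRNA-Trp, chrPT:66259-66275 minus strand: TgggTctccaaaaccca
tRNA-Gly listed as Gly-4, chrPT:9386-9402 plus strand: TTagccttccaagctaa
tRNA-Gly listed as Gly-5, chrPT:36515-36531 plus strand: Tctccttgccaaggaga
tRNA-Val(GAC), chrPT:100734-100750 plus strand: Tcaccttgacgtggtgg
tRNA-Lys, chrPT:1747-4322 minus strand with its intron left out: cTcggcttttaaccgac
tRNA-Ser(GGA), chrPT:44854-44870 plus strand: TaacaTtggaactgtta
Elongator tRNA-Met (Met-8), chrPT:52082-52098 plus strand: tTgcttTcatacggcag

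The third group holds anticodon arms with a site in the 3′ part of the loop or the 3′ strand of the stem. Of these, Asn, His and Thr also have a site in the 5′ strand, and tRNA-Cys has a site in the 5′ part of the loop.
tRNA-Asn, chrPT:109043-109059 minus strand: gTcggctgttaacTgat
tRNA-His, chrPT:33-49 minus strand: gTggattgtgaaTtcac
tRNA-Thr(TGT), chrPT:46243-46259 minus strand: TcgcatttgtaaTgcga
tRNA-Cys, chrPT:27398-27414 plus strand: ggggacTgcaaaTccTt
tRNA-Leu(CAA), chrPT:94314-94330 minus strand: cgagactcaaaaTctcg
tRNA-Leu(TAA), chrPT:46921-47449 plus strand with its intron left out: acggacttaaaaTccgt
tRNA-Tyr, chrPT:30363-30379 minus strand: acggactgtaaaTtcgt
tRNA-Ile listed as Met-9, chrPT:86343-86359 minus strand: cccaactcataatTggc
tRNA-Pro, chrPT:66520-66536 minus strand: tttgttttgggTacaaa

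Up to position 52, the tRNAs with the most listed sites were tRNA-Cys and tRNA-His, with 3 each. Their whole sequences show the spacing of these sites and of the T-loop site, the last capital.
tRNA-Cys, whole, chrPT:27373-27443 plus strand: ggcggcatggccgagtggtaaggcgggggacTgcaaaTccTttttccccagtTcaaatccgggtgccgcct
tRNA-His, whole, chrPT:4-76 minus strand: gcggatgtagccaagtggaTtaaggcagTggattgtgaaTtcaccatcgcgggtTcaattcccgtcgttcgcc

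Counted by structure, 4 sites lay in the D arm, 2 at canonical position 26, 17 in the 5′ strand of the anticodon stem, 4 in the anticodon loop and 9 in the 3′ strand of the stem. Over the 30 distinct chloroplast tRNA sequences of the reference, T occurred at position 27 in 11 and was listed in 8, and at position 28 in 8 and was listed in 5. At position 31, 4 of 8 T were listed, and at position 39, 6 of 10. Position 33 is T in all 30 sequences, and 2 of them were listed. At position 32, 1 of 10 was listed. No T was listed at positions 29 and 41, each T in 5 sequences, or within the anticodon. At positions 26 and 40, 2 of 4 T were listed at each, at 38, 1 of 3, and at 42, 1 of 5. Position 43 has T in 7 sequences and none was listed. By count, most listed sites of the anticodon arm were thus at 27, 28, 31 and 39. The share of T listed at 31 was no higher than at 26 or 40.

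**Figure D1:**
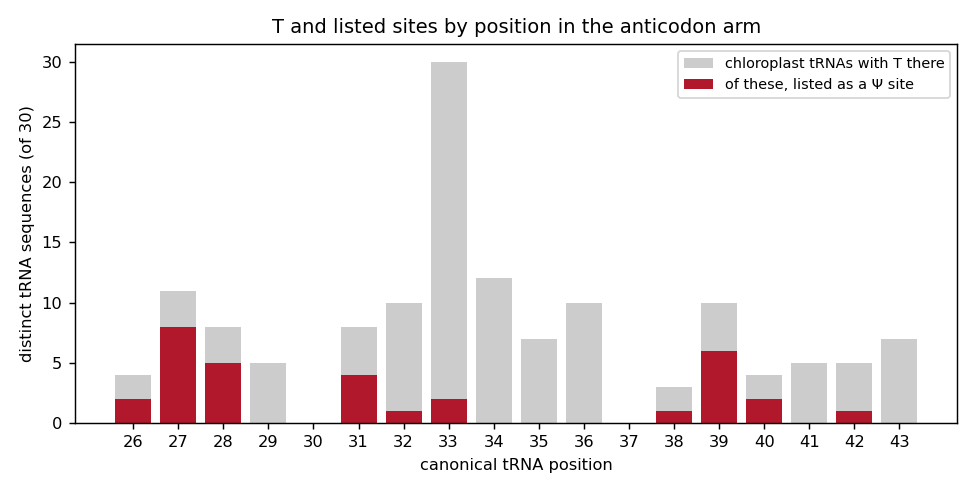
Grey bars count the distinct chloroplast tRNA sequences (y axis, of 30) with T at each canonical position of the anticodon arm (x axis), and red bars count those listed as a Ψ site. Position 33 has T in all 30 sequences and 2 listed sites, whereas position 27 has 8 listed of 11.

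Of the 26 sites in stems, 19 face A across the stem, 6 face G and 1 faces T (Arg 27, opposite position 43). The sites that face G are Glu 28, Glu 32, Val(GAC) 26, Asn 39, Ala 31 and Cys 41. Their median fractions over tissues ran from 0 to 0.867 around a median of 0.236, and those of the 19 sites that face A ran from 0 to 1 around 0.583, so the ranges overlapped. C followed 16 of the 36 sites. In 13 sites the T lies in a run of 2 or more T, where a deletion cannot be assigned to a single base of the run. In the D arm these are His 20, Met-7 17 and Val(TAC) 17. In the 5′ strand they are Gly-4 27, Gly-4 28, Gly-5 26 and Met-8 28. In the loop they are Ser(GGA) 33 and Met-8 33, and in the 3′ strand His 40, Tyr 40, Met-9 40 and Cys 41. Counts by position take the listed base. The motif TTNNAAA, searched on the given strand over the loop bases 32 to 38, was in 0 of the 30 chloroplast loops (0.0%).

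All 36 sites had passed the authors' filter in at least 1 tissue, as had 100% of all tRNA sites in the table, so passing once does not set these sites apart. In all 9 tissues, 10 of 36 (27.8%) had passed, where the share over all tRNA sites was 54.7%. These were Ser(TGA) 27, Gly-4 27, Gly-5 26, Trp 28, Trp 32, Asn 27, Asn 39, Lys 27, Glu 32 and His 40. In 1 tissue only, 7 of 36 had passed, against 9.17% of all tRNA sites, and they were Ala 31, Gly-4 28 and Cys 32 in flower, Met-7 17 and Glu 28 in shoot, His 20 in silique and Ala 26 in root. Of the 323 values, 196 had passed (60.7%), the lowest of them 0.111, and 38 were listed at 0, none of which had passed. Passing did not follow the level alone: 15 values of at least 0.5 had not passed, the highest of them 0.854 at Met-9 40 in flower.

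**Figure D2:**
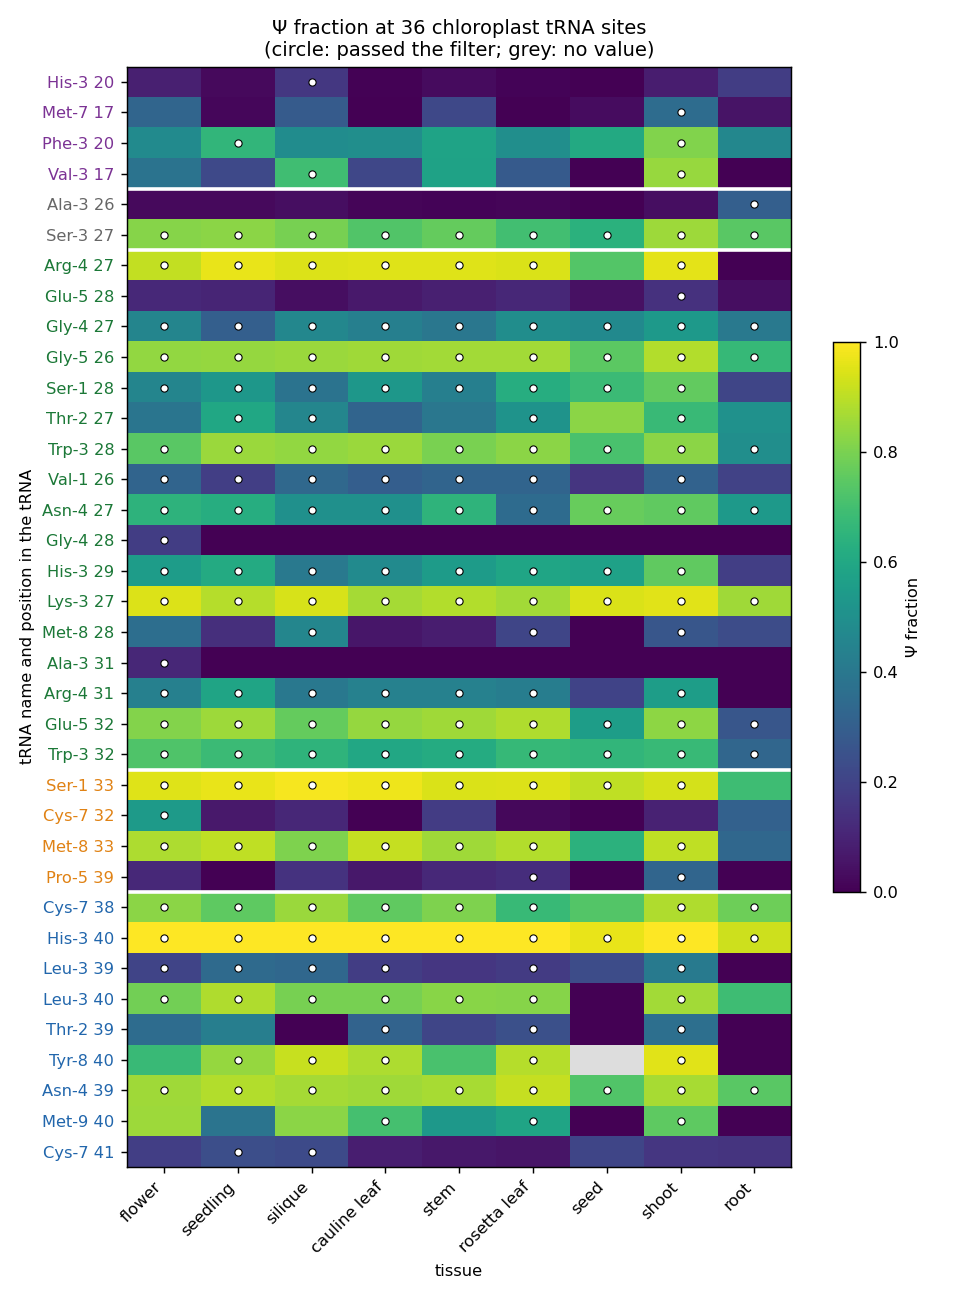
Colour gives the Ψ fraction (0 to 1) of each of the 36 sites (rows, by isotype, number of the tRNA name and listed position) in the 9 tissues (columns), a white circle marks a value that passed the filter, and grey marks the missing value of Tyr 40 in seed. Rows run from the D arm through position 26, the 5′ strand, the loop and the 3′ strand of the anticodon arm, and the root column is darker than its neighbours in rows such as Arg-4 27 and Tyr-8 40.

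The D arm held 4 sites, and none had passed in over 2 tissues. Phe 20, in the D loop of the tRNA for phenylalanine, was 0.479 in flower, 0.657 in seedling, 0.485 in silique, 0.496 in cauline leaf, 0.581 in stem, 0.494 in rosetta leaf, 0.606 in seed, 0.811 in shoot and 0.464 in root. It was the only D arm site above 0.4 in all 9 tissues, and it had passed in seedling and shoot. Val(TAC) 17, also in the D loop, was 0.38 in flower, 0.221 in seedling, 0.694 in silique, 0.212 in cauline leaf, 0.576 in stem, 0.285 in rosetta leaf, 0 in seed, 0.846 in shoot and 0 in root. Its values spanned 0.846, from 0 in seed and root to the shoot value, and it had passed in silique and shoot. Met-7 17, in the initiator tRNA that starts chloroplast proteins, was 0.328 in flower, 0.018 in seedling, 0.287 in silique, 0 in cauline leaf, 0.218 in stem, 0 in rosetta leaf, 0.032 in seed, 0.355 in shoot and 0.054 in root, and had passed in shoot. His 20 was lowest in seed (0), had a median of 0.029 and was highest in root (0.181). Over the 9 tissues Val(TAC) 17 and Met-7 17 gave Pearson r = 0.82 and Spearman rho = 0.66, while Phe 20 and His 20 gave r = -0.26 and rho = -0.55. These are the highest and the lowest r of 6 pairs. Each pair is over 9 pooled values that share their libraries, and both are given as a description. Val(TAC) 17 and Met-7 17 are both listed in part through shoot, the highest tissue of each, and most of their values had not passed. Their r is therefore no evidence of a shared pattern.

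Position 26, the base that joins the D and anticodon arms, was listed in 2 tRNAs with unlike levels. Ser(TGA) 27 was 0.817 in flower, 0.828 in seedling, 0.794 in silique, 0.73 in cauline leaf, 0.763 in stem, 0.699 in rosetta leaf, 0.637 in seed, 0.855 in shoot and 0.744 in root, and had passed in all 9 tissues. Ala 26, in a tRNA encoded between the chloroplast rRNA genes, was 0.025 in flower, 0.025 in seedling, 0.036 in silique, 0.014 in cauline leaf, 0.009 in stem, 0.014 in rosetta leaf, 0 in seed, 0.037 in shoot and 0.301 in root. It thus stayed below 0.04 in 8 tissues, and root was its only passing tissue.

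At canonical position 27, the first base of the anticodon stem, 8 sites were listed and their median fractions ran from 0.089 to 0.947. Arg(TCT) 27 was 0.907 in flower, 0.965 in seedling, 0.947 in silique, 0.952 in cauline leaf, 0.95 in stem, 0.944 in rosetta leaf, 0.731 in seed, 0.959 in shoot and 0 in root. It was at least 0.907 in the 7 tissues where it had passed and had not passed in seed or root, and it faces a T rather than an A. Gly-5 26, in the tRNA with anticodon GCC, was 0.837 in flower, 0.842 in seedling, 0.85 in silique, 0.856 in cauline leaf, 0.86 in stem, 0.863 in rosetta leaf, 0.747 in seed, 0.886 in shoot and 0.671 in root, and had passed in all 9. Trp 28, in a tRNA with a copy of 1 mismatch outside the chloroplast genome, was 0.746 in flower, 0.85 in seedling, 0.838 in silique, 0.848 in cauline leaf, 0.8 in stem, 0.826 in rosetta leaf, 0.711 in seed, 0.825 in shoot and 0.495 in root, and had also passed in all 9. Both were high and even outside root and seed, where the span of Gly-5 26 was 0.049 and that of Trp 28 was 0.104.

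Among the position 27 sites, 4 were intermediate. Ser(GGA) 28 was 0.457 in flower, 0.53 in seedling, 0.38 in silique, 0.53 in cauline leaf, 0.43 in stem, 0.622 in rosetta leaf, 0.682 in seed, 0.76 in shoot and 0.208 in root, and had passed in all tissues but root. Thr 27 was 0.39 in flower, 0.596 in seedling, 0.458 in silique, 0.322 in cauline leaf, 0.396 in stem, 0.514 in rosetta leaf, 0.827 in seed, 0.679 in shoot and 0.504 in root, with its highest value, in seed, not passed. Gly-4 27 was 0.457 in flower, 0.304 in seedling, 0.463 in silique, 0.433 in cauline leaf, 0.396 in stem, 0.491 in rosetta leaf, 0.474 in seed, 0.537 in shoot and 0.406 in root, and had passed in all 9. Its T is followed by a second T, so the deletion may belong to either base, and the other T of the pair, Gly-4 28, was listed at 0 in 8 tissues and at 0.18 in flower. Val(GAC) 26 was 0.322 in flower, 0.187 in seedling, 0.338 in silique, 0.297 in cauline leaf, 0.324 in stem, 0.323 in rosetta leaf, 0.155 in seed, 0.313 in shoot and 0.197 in root, and had not passed in seed or root. Glu 28 was the lowest of the group, between 0.038 in silique and 0.142 in shoot with a median of 0.089, and had passed in shoot only.

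At canonical position 28 the highest site was Lys 27, in the tRNA whose gene carries the chloroplast's matK intron. It was 0.946 in flower, 0.888 in seedling, 0.938 in silique, 0.865 in cauline leaf, 0.884 in stem, 0.863 in rosetta leaf, 0.944 in seed, 0.957 in shoot and 0.856 in root, had passed in all 9 tissues, and its range of 0.101 was among the narrowest. Asn 27 was 0.647 in flower, 0.624 in seedling, 0.5 in silique, 0.503 in cauline leaf, 0.65 in stem, 0.351 in rosetta leaf, 0.768 in seed, 0.755 in shoot and 0.542 in root, and had passed in all 9. His 29 was 0.553 in flower, 0.613 in seedling, 0.405 in silique, 0.478 in cauline leaf, 0.548 in stem, 0.587 in rosetta leaf, 0.574 in seed, 0.756 in shoot and 0.185 in root, with root the only tissue in which it had not passed. Met-8 28, in the elongator tRNA for methionine, was 0.361 in flower, 0.133 in seedling, 0.458 in silique, 0.062 in cauline leaf, 0.082 in stem, 0.208 in rosetta leaf, 0 in seed, 0.268 in shoot and 0.231 in root, and had passed in silique, rosetta leaf and shoot. The remaining site, Gly-4 28, is described above.

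At canonical position 31, which closes the loop from the 5′ side, 3 sites were well above 0 and all 3 were lowest in root. Glu 32 lies in the tRNA that also feeds the synthesis of chlorophyll and heme by way of glutamyl-tRNA reductase. It was 0.816 in flower, 0.852 in seedling, 0.765 in silique, 0.841 in cauline leaf, 0.856 in stem, 0.882 in rosetta leaf, 0.558 in seed, 0.831 in shoot and 0.266 in root, and had passed in all 9 tissues. Its span of 0.616 was the only span of at least 0.5 in which the lowest value had itself passed. Trp 32 was 0.724 in flower, 0.682 in seedling, 0.649 in silique, 0.6 in cauline leaf, 0.617 in stem, 0.669 in rosetta leaf, 0.66 in seed, 0.674 in shoot and 0.329 in root, and had passed in all 9. Arg(TCT) 31 was 0.436 in flower, 0.585 in seedling, 0.4 in silique, 0.441 in cauline leaf, 0.439 in stem, 0.422 in rosetta leaf, 0.203 in seed, 0.555 in shoot and 0 in root, and had not passed in seed or root. Ala 31 was listed at 0 in 8 tissues and at 0.111 in flower, its only passing value. Set against the median over the 8 other tissues, root differed by -0.57 at Glu 32, by -0.34 at Trp 32 and by -0.44 at Arg(TCT) 31.

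The anticodon loop held 4 sites. Ser(GGA) 33, at canonical position 32 next to the invariant U of the loop, was 0.951 in flower, 0.967 in seedling, 0.988 in silique, 0.973 in cauline leaf, 0.942 in stem, 0.947 in rosetta leaf, 0.906 in seed, 0.934 in shoot and 0.691 in root. It had passed in all tissues but root and was at least 0.906 wherever it had passed. Its T is followed by the T of position 33, so the deletion may belong to either base. Met-8 33 was 0.877 in flower, 0.906 in seedling, 0.808 in silique, 0.912 in cauline leaf, 0.856 in stem, 0.886 in rosetta leaf, 0.641 in seed, 0.903 in shoot and 0.333 in root. This T is the last of a run of 3 that covers canonical positions 31 to 33, so which of the 3 bases carries the Ψ cannot be read from a deletion, and the value had not passed in seed or root. Cys 32, at the invariant position 33, was 0.544 in flower, 0.07 in seedling, 0.113 in silique, 0 in cauline leaf, 0.176 in stem, 0.02 in rosetta leaf, 0 in seed, 0.095 in shoot and 0.312 in root, and had passed in flower only. Pro 39, at position 38, was 0.115 in flower, 0 in seedling, 0.147 in silique, 0.066 in cauline leaf, 0.114 in stem, 0.13 in rosetta leaf, 0 in seed, 0.327 in shoot and 0 in root, and had passed in rosetta leaf and shoot. Medians in the loop therefore ran from 0.947 at Ser(GGA) 33 to 0.095 at Cys 32.

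Canonical position 39, which pairs with 31 and is a TruA position in bacteria, was listed in 6 tRNAs. The listed base of His 40 and of Tyr 40 is followed by another T, at canonical position 40, so the deletion may belong to either base. His 40 was 1 in flower, 1 in seedling, 1 in silique, 1 in cauline leaf, 1 in stem, 1 in rosetta leaf, 0.967 in seed, 1 in shoot and 0.924 in root. It was the most complete of the 36 sites, and all 7 values of 1 among them belonged to it. Cys 38 was 0.825 in flower, 0.753 in seedling, 0.851 in silique, 0.756 in cauline leaf, 0.806 in stem, 0.675 in rosetta leaf, 0.732 in seed, 0.882 in shoot and 0.78 in root, and had not passed in seed. Leu(TAA) 40 was 0.787 in flower, 0.882 in seedling, 0.793 in silique, 0.796 in cauline leaf, 0.821 in stem, 0.82 in rosetta leaf, 0 in seed, 0.86 in shoot and 0.691 in root, with neither seed nor root passed. Tyr 40 had no seed value and was 0.679 in flower, 0.84 in seedling, 0.915 in silique, 0.877 in cauline leaf, 0.712 in stem, 0.887 in rosetta leaf, 0.954 in shoot and 0 in root. It had not passed in flower, stem or root. Thr 39 was 0.354 in flower, 0.426 in seedling, 0 in silique, 0.318 in cauline leaf, 0.21 in stem, 0.245 in rosetta leaf, 0 in seed, 0.366 in shoot and 0 in root, and had passed in cauline leaf, rosetta leaf and shoot. Leu(CAA) 39 was 0.205 in flower, 0.347 in seedling, 0.335 in silique, 0.183 in cauline leaf, 0.158 in stem, 0.172 in rosetta leaf, 0.232 in seed, 0.408 in shoot and 0 in root, and had not passed in stem, seed or root. The 6 sites faced A in every case, and 4 of them had medians of at least 0.78 while the other 2, Thr 39 and Leu(CAA) 39, were at 0.245 and 0.205.

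Farther down the 3′ strand, Asn 39 at canonical position 40 was 0.859 in flower, 0.884 in seedling, 0.867 in silique, 0.858 in cauline leaf, 0.868 in stem, 0.911 in rosetta leaf, 0.729 in seed, 0.869 in shoot and 0.744 in root, and had passed in all 9. It faces a G. Met-9 40, in the isoleucine tRNA with the CAT anticodon, was 0.854 in flower, 0.385 in seedling, 0.825 in silique, 0.707 in cauline leaf, 0.532 in stem, 0.583 in rosetta leaf, 0 in seed, 0.75 in shoot and 0 in root, and had passed in cauline leaf, rosetta leaf and shoot. Cys 41, the first of 5 T in a row, ran from 0.056 in rosetta leaf to 0.241 in seedling with a median of 0.158. It was the listed site nearest the position limit from below, and the first sites above the limit were the T-loop sites Cys 53 and Gly-5 53, with medians of 0.99 and 0.998. The limit also set aside 2 sites of Ser(GGA) that precede the T loop in its long variable arm, at positions 55 (median 0.026) and 59 (median 0.419).

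Sites that share a tRNA share its molecules, so their order can be read within each tissue. In tRNA-His the order was position 40, then 29, then 20 in all 9 tissues. In root, though, 29 (0.185) and 20 (0.181) were nearly equal, and neither had passed. Position 20 had passed in silique only. The closing-pair site was above the position 27 site in tRNA-Glu (32 over 28 in 9 tissues, by a median of 0.727) but below it in tRNA-Trp (32 under 28 in 9, median difference -0.166) and tRNA-Arg(TCT) (31 under 27 in 8, with both listed at 0 in root). Glu 28 had passed in shoot only, and neither site of tRNA-Arg(TCT) had passed in seed or root. In tRNA-Thr, position 27 was above 39 in all 9, though barely in cauline leaf (0.322 against 0.318). Both had passed only in rosetta leaf and shoot, and 39 was listed at 0 in silique, seed and root. In tRNA-Cys, 38 was above both 32 and 41 in all 9, but 32 had passed in flower only and 41 in seedling and silique only. Asn 39 was above Asn 27 in 8 tissues, all but seed. Neither strand of the stem was thus the higher in every tRNA.

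The T-loop site of the same tRNA gave a reference for each site, since all 23 tRNAs have a listed T-loop site. Over the 29 chloroplast T-loop sites the median over tissues ran from 0.889 to 1, and the lowest single value was 0.675. In 31 of the 36 sites the value was below that of the T loop of the same tRNA in every tissue measured. Of the 323 values of the 36 sites, 127 had not passed and 38 were listed at 0, and these enter the count as they stand. The 5 exceptions were Arg(TCT) 27 (lower in 8 tissues, equal in 1), Thr 27 (lower in 8), Ser(GGA) 33 (lower in 8), Lys 27 (lower in 6) and His 40 (lower in 0, equal in 5). In root the T loop of tRNA-Arg(TCT) was at 0.882 while positions 27 and 31 of that tRNA were listed at 0.

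**Figure D3:**
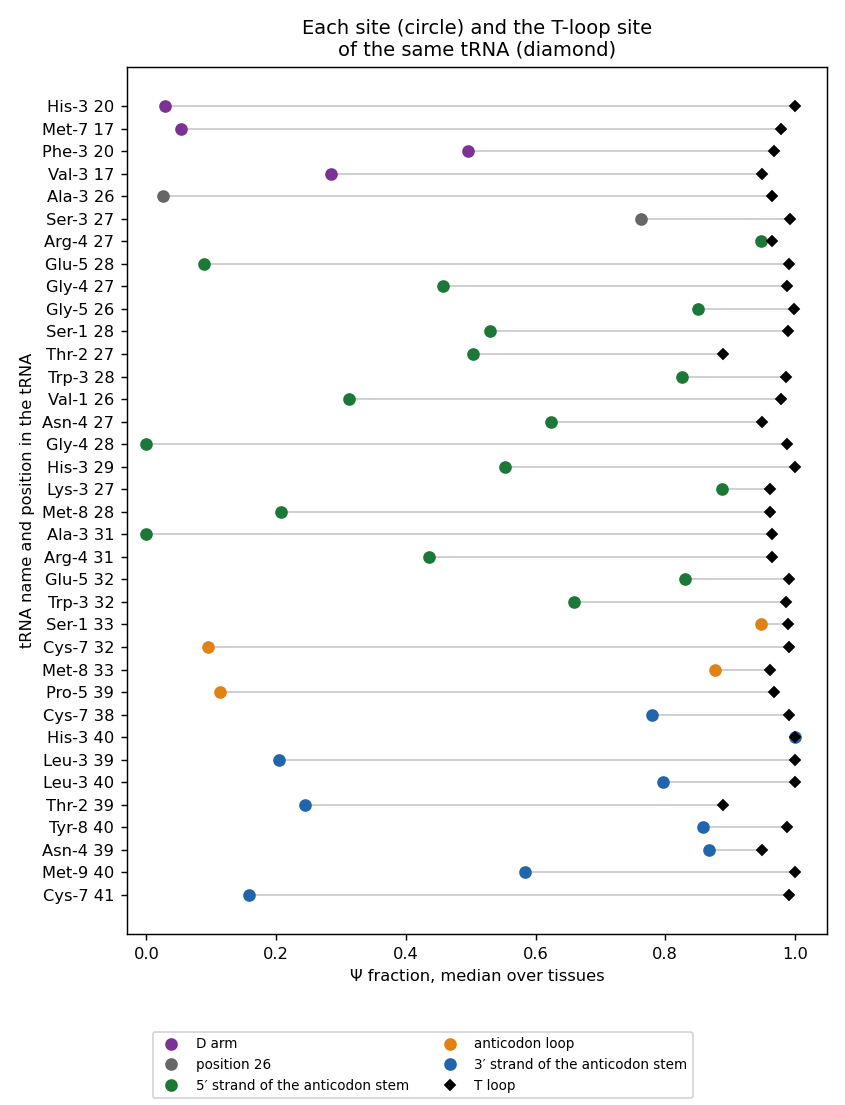
The x axis gives the Ψ fraction, as the median over tissues, of each of the 36 sites (circles, coloured by structure) and of the T-loop site in the same tRNA (black diamonds), and each row on the y axis is a site. The diamonds lie between 0.889 and 1, while the circles spread from 0 to 1.

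Over the 35 sites with all 9 values, the median fraction was 0.479 in flower, 0.585 in seedling, 0.463 in silique, 0.478 in cauline leaf, 0.532 in stem, 0.494 in rosetta leaf, 0.474 in seed, 0.75 in shoot and 0.266 in root. Over the 31 chloroplast sites above position 52 it ran from 0.849 in root to 0.988 in rosetta leaf. The median of the sites ahead of the T loop was lower in 9 of 9 tissues, with a mean difference of -0.457 (SD over tissues 0.0999, n = 9), from -0.234 in shoot to -0.583 in root. The adjusted p was 0.0078 by an exact two-sided sign-flip test over the 9 tissues with Benjamini-Hochberg adjustment over 2 comparisons, and the smallest unadjusted p this design allows is 0.0039. The same sites were measured in every tissue, so the test asks if the difference kept its direction over tissues. It does not ask if the difference would hold over other sites. Over sites that passed in all 9 tissues only, the mean difference was -0.168 (10 sites ahead of the T loop, adjusted p = 0.0039, same exact test).

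Against the 123 nuclear tRNA sites at or below position 52, the median was lower in 7 of 9 tissues, with a mean difference of -0.144 (SD over tissues 0.0984, n = 9; adjusted p = 0.0156, same exact test). The difference was widest in root (-0.275), and in seed (0.015) and shoot (0.003) it was near 0. The mean difference was -0.0896 with means over sites, -0.0909 over sites that passed in all 9 tissues and -0.279 without tRNAs that have a near copy outside the chloroplast genome. It also depended on which positions were compared, taken here as listed and not as canonical numbers. Between listed positions 26 and 44 only, with 31 chloroplast and 89 nuclear sites, the mean difference turned to 0.0251 (lower in 4 of 9 tissues, adjusted p = 0.508, same exact test). From position 10 to 25 the 4 chloroplast sites had a median of 0.17 and the 29 nuclear sites 0.884, and the chloroplast sites were also lower from 26 to 29 (0.53 over 15 sites against 0.63 over 27) and from 37 to 41 (0.583 over 9 against 0.733 over 39). From 30 to 34 alone they were higher (0.66 over 7 against 0.369 over 15).

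**Figure D4:**
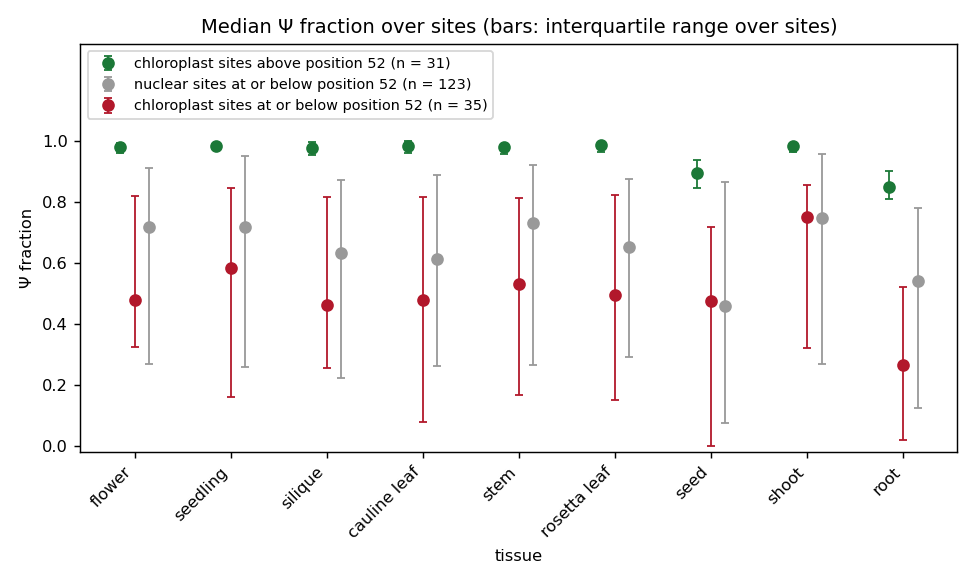
Points give the median Ψ fraction (y axis) over sites in each of the 9 tissues (x axis) for chloroplast sites at or below position 52 (red), chloroplast sites above it (green) and nuclear sites at or below it (grey), and bars span the interquartile range over sites, not an error. The red medians run from 0.266 in root to 0.75 in shoot and lie below the green medians in all 9 tissues.

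The sites had wider ranges over tissues than the other chloroplast sites. The median range over tissues was 0.355, against 0.143 over chloroplast sites above position 52, 0.286 over the nuclear sites at or below it and 0.2 over all tRNA sites. A range of at least 0.5 was found in 11 of 35 (31.4%), against 16.6% of all tRNA sites. The 11 were Arg(TCT) 27, Leu(TAA) 40, Met-9 40, Val(TAC) 17, Glu 32, Arg(TCT) 31, Met-8 33, His 29, Ser(GGA) 28, Cys 32 and Thr 27. In 10 of them, all but Glu 32, the lowest value was one that had not passed. Without root and seed the count fell to 2 of 35, Val(TAC) 17 and Cys 32, and this 5.71% was near the 5.54% of all tRNA sites. The median range fell to 0.18, against 0.015 over chloroplast sites above position 52, 0.154 over the nuclear sites at or below it and 0.09 over all. Cys 32 had passed in flower only, its highest tissue, and is listed through it, so its wide range follows in part from how it entered the table. The same holds for Val(TAC) 17, which had passed only in silique and shoot, its 2 highest tissues.

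Root carried the lowest values at many sites, though no more often than in the table at large. Root fell under the median of the 8 other tissues in 28 of 35 sites (80.0%), against 86% of all tRNA sites. It alone was lowest in 14 of 35, against 56.6%. The shift itself, root minus the median of the others, had a median of -0.11 over the sites, the same as over the chloroplast sites above position 52 (-0.11). It ran from -0.95 at Arg(TCT) 27 to 0.28 at Ala 26, which had passed in root only and is listed through it. Large root shortfalls were seen at Arg(TCT) 27, Tyr 40 (-0.88), Met-9 40 (-0.645), Glu 32 and Met-8 33 (-0.55), and the first 3 were listed at 0 in root. Cys 38 differed least among the sites that had passed in root (0.78 against 0.781).

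**Figure D5:**
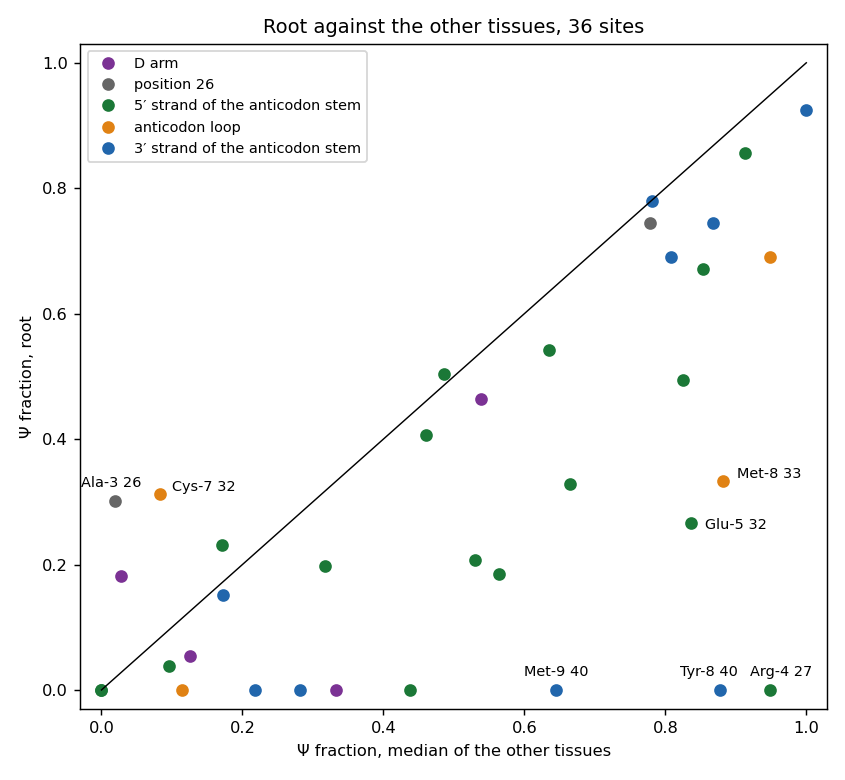
Each of the 36 points sets the Ψ fraction in root (y axis) against the median of the other tissues (x axis) for 1 site, coloured by structure, and the line marks equality. Arg-4 27, Tyr-8 40 and Met-9 40 lie on the bottom edge because root was listed at 0, and Ala-3 26 and Cys-7 32 lie above the line.

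Passed values were also fewest in root and seed. In root 12 of 36 sites had passed (33.3%, against 73.9% of all tRNA sites) and in seed 13 (against 61.9%). Elsewhere the counts, with the share of all tRNA sites in brackets, were 19 in stem (79.9%), 23 in flower (79.7%) and 23 in cauline leaf (75.4%). They were 24 in seedling (81.1%), 26 in silique (82.2%) and 26 in rosetta leaf (85.4%). Shoot, with 30 of 36, was near the share of all tRNA sites (84.2%). In 19 of 36 sites shoot had passed and root had not, against 13.8% of all tRNA sites. The reverse held in 1 site, Ala 26, against 3.44% of all tRNA sites. Values listed at 0 numbered 10 in root and 11 in seed and at most 4 in any other tissue. Over all tRNA sites, too, they were most frequent in seed (50) and root (23), with at most 18 in any other tissue. At least 1 tissue was listed at 0 in 15 of the 35 sites with all values, against 20.1% of all tRNA sites, and a fraction of at least 0.1 in all 9 tissues was found in 18 of 35, against 72.9%. Fewer chloroplast tRNA molecules in a tissue and less reading of each cannot be told apart in these columns, and the part of depth in these calls was not tested.

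Seed fell under the median of the 8 others in 23 of 35 sites (70.8% of all tRNA sites) and above it in 10. Sites where seed was high included Thr 27, above the others by 0.35 without having passed, and Ser(GGA) 28 and Asn 27, above by 0.189 and 0.185, both passed. Leu(TAA) 40 and Met-9 40 were listed at 0 in seed. Shoot alone was highest in 13 of 35 sites, against 24.5% of all tRNA sites. Among these, Met-7 17 and Glu 28 had passed in shoot only and are listed through it, so their place in the count follows from that. A median of at least 0.9 was found in 3 of 35 sites, His 40, Arg(TCT) 27 and Ser(GGA) 33, against 45.5% of all tRNA sites.

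Some of these tRNAs have close relatives outside the chloroplast genome. With at most 5 mismatches over the whole sequence, 6 of the 23 tRNAs had a copy in the nuclear chromosomes (Asn, Glu, Met-8, Ser(GGA), Trp and Tyr) and 4 of these (all but Glu and Tyr) also had one in the mitochondrial genome. The copy of tRNA-Tyr, on chromosome 3, was exact. The table also lists a tRNA-Trp named for the nuclear and mitochondrial copies, whose values differed from those of the chloroplast rows by at most 0.01 in 8 of 9 tissues at position 28 and in 8 of 9 at position 32. Against the tRNA-Asn rows of the same naming this held in 7 of 9 tissues at Asn 27 and in 0 at Asn 39, with a median difference of 0.059. Values of Trp 28, Trp 32 and Asn 27 are therefore not shown to be of the chloroplast tRNA alone, and reads of Tyr 40 cannot be assigned to the chloroplast by sequence. How reads of the other near copies were assigned is not known. The 11 sites in tRNAs with a near copy had a median Ψ fraction of 0.825 with a root shift of -0.32 (median), and the 25 sites in the other tRNAs had 0.436 and -0.07. The part of shared reads in these values was not tested. Without the near-copy tRNAs, a choice made after the values were seen, 5 sites had passed in all 9 tissues, and the difference from chloroplast sites above position 52 was -0.593.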

How the data were processed

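Total RNA BID-seq of 9 Arabidopsis tissues was used, with 2 treated and 2 input libraries per tissue. The authors aligned single reads to TAIR10 with their BID-seq pipeline, summed gapped and ungapped reads of the treated replicates, and turned the gap ratio into a Ψ fraction with a calibration curve. The deposited fraction is therefore 1 pooled value per site and tissue, and the second deposited column is a TRUE or FALSE call of a p-value-based filter whose thresholds are not given in the sources used here. Pooling removes the replicate spread, depth is unknown, and reads of near-identical tRNAs may be shared. The rRNA table was not used.

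Sites were placed on RefSeq chloroplast tRNA genes (TAIR10.1), and the anticodon set canonical numbering. Medians over sites were compared between sets per tissue, and the 9 differences were tested with an exact two-sided sign-flip test (512 sign patterns) with Benjamini-Hochberg adjustment over 2 comparisons, checked on simulated data. Sites with all 9 values entered (35 of 36). Every site was named, and all tissue values were printed for sites with a median of at least 0.2 or a range of at least 0.3. Alternatives changed the summary, the treatment of values listed at 0, the sites and the tissues kept. The sites, lists and tests were chosen with earlier results of these data known. Python 3.11.15, numpy 2.4.6, pandas 2.3.3 and matplotlib 3.10.9 were used.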

Additional observations from a re-analysis of the deposited data

Results flagged for a closer look

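Of the 41 series of tissue values examined (36 sites, 4 structural classes and the median of all sites), 12 had a tissue far from the others by Dixon's gap test. The test's rate of 1 in 20 is for normal values, which fractions bounded at 0 and 1 are not. It was not run over the other tRNA sites, so no share over the table stands beside the 12. Root alone was lowest in 14 of 35 sites, against 56.6% of all tRNA sites. Tissues are not replicates, so a distant tissue may be a true level. In 7 sites root was the distant lowest tissue: it was at 0 for Arg(TCT) 27 (next 0.731), at 0 for Tyr 40 (next 0.679), at 0.333 for Met-8 33 (next 0.641), at 0.691 for Ser(GGA) 33 (next 0.906), at 0.495 for Trp 28 (next 0.711), at 0.329 for Trp 32 (next 0.6) and at 0.924 for His 40 (next 0.967). The root values of Arg(TCT) 27, Tyr 40, Met-8 33 and Ser(GGA) 33 had not passed the filter. Seed was the distant lowest tissue for Leu(TAA) 40, at 0 (next 0.691). Single high tissues were shoot for Pro 39 (0.327, next 0.147), root for Ala 26 (0.301, next 0.037), and flower for Ala 31 (0.111, next 0) and Gly-4 28 (0.18, next 0). Ala 26, Ala 31 and Gly-4 28 had passed in that tissue only and are listed through it, so their gaps follow from how sites entered the table and are no evidence of a distant tissue.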

How the results depend on the processing

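No paired analysis was possible because the deposited columns pool the replicates of each tissue into 1 value, and for the same reason no replicate could be left out. Depth is unknown, so no limit of detection can be given, and the filter's own thresholds are not known. Of 84 recomputed values, 49 stayed on the same side of the threshold, within 1.5 times for a count or within 0.05 for a tissue median. The difference from chloroplast sites above position 52 kept its sign and its adjusted p under 0.05 (exact sign-flip test) in every alternative, but shrank to -0.168 over sites that passed in all 9 tissues. It was -0.5926 without tRNAs that have a near copy, and leaving out each tissue in turn gave -0.4845 to -0.4409. The difference from nuclear sites at or below position 52 kept both as well, with -0.1639 to -0.1276 on leaving out each tissue, -0.0896 with means over sites, -0.0909 over sites that passed in all 9 and -0.2787 without near-copy tRNAs, except between positions 26 and 44, where it reversed to 0.0251 (adjusted p = 0.5078, exact sign-flip test). That window is on listed positions and leaves out the D arm sites of the chloroplast set. Nuclear sites were not placed by structure, so those left out are known by listed position only.

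The tissue medians moved with the sites kept. Over sites that passed in all 9 tissues they were 0.8165 in flower, 0.846 in seedling, 0.816 in silique, 0.8445 in cauline leaf, 0.828 in stem, 0.8445 in rosetta leaf, 0.72 in seed, 0.843 in shoot and 0.6065 in root, so that shoot was no longer the highest. With values of 0 as missing they were 0.5485 in rosetta leaf, 0.6505 in seed and 0.3695 in root. As a mean they were 0.5337 in flower, 0.4969 in seedling, 0.3934 in seed, 0.5838 in shoot and 0.3229 in root. Without Leu, Ser and Tyr tRNAs they were 0.5055 in seedling, 0.3415 in seed and 0.6765 in shoot. Without tRNAs that have a near copy, chosen after the values were seen, they were 0.385 in seedling, 0.405 in silique, 0.322 in cauline leaf, 0.396 in stem, 0.422 in rosetta leaf, 0.203 in seed, 0.555 in shoot and 0.185 in root, with root lowest and shoot highest of the 9. Root fell under the median over the 8 others in 10 of the 10 sites that passed in all 9, and in 21 of 26 with values of 0 as missing. Over all tRNA sites, passed or not, root fell under it in 86%. The share among all tRNA sites that passed in all 9 was not counted. The count of sites passed in all 9 tissues (10) became 18 by a fraction of at least 0.1 in all 9, and 5 without near-copy tRNAs. The count with a range of at least 0.5 (11) became 5 without root, 2 without root and seed, and 7 with values of 0 as missing. Beyond fewer sites or tissues, the cause of these shifts was not tested.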
